A study of Homo sapiens with 18 samples.

Results

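Ribosomal protein genes encode the proteins of the cytoplasmic ribosome. They were chosen here by symbol alone, as the genes of the mRNA-seq table named RPL or RPS with a number and an optional A or X, together with RPLP0, RPLP1, RPLP2 and RPSA. The rule took 77 of the 22336 genes in the table, 46 for the large and 31 for the small subunit, and no measured value entered the choice. Their regulatory sequence was followed through the accessible sites and the STARR-seq enhancers within 5 kb of their start sites. All coordinates are in hg19.

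The cells were LNCaP, an androgen-responsive human prostate cancer cell line. The STARR-seq assay tested enhancer activity over the whole genome (WHG-STARR-seq): random genomic fragments sit in the transcribed part of a reporter plasmid and drive their own transcription. There were 2 output replicates harvested 72 h after electroporation and 1 input plasmid library. The DNA in the plasmids came from a commercial human genomic DNA and not from LNCaP. Accessibility was measured by ATAC-seq in 3 cultures treated for 24 h with trichostatin A (TSA, an inhibitor of histone deacetylases) at 100 ng/ml and in 3 cultures treated with vehicle, and mRNA was sequenced from 3 TSA-treated, 3 vehicle-treated and 3 untreated cultures. Each file holds values pooled over replicates or averaged over libraries, so the values have no error between replicates, the depth of a library is unknown, and the comparisons below are descriptions without a test. The average mRNA level mixes TSA-treated and vehicle-treated cells, and a change of a ribosomal protein mRNA under TSA was not analysed here. Of the luminal prostate markers, the average was 8.04 log2 CPM for KLK3, 8.81 for HOXB13, 6.00 for TMPRSS2 and 4.41 for KLK2. Among markers of other cell types, KRT14, TP63 and PTPRC were at -0.86, -1.89 and -1.89 log2 CPM, whereas KRT5 (basal keratin) and COL1A1 (fibroblast collagen) were at 6.23 and 6.77.

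A ribosome contains 1 copy of nearly every ribosomal protein, and the large and small subunits are assembled on ribosomal RNA in the nucleolus. The mRNAs of these genes are known for a terminal oligopyrimidine (TOP) stretch, an uninterrupted run of C and T that begins at the C where transcription starts and through which the mTOR pathway controls their translation. The same stretch around the start site acts as the initiator of their core promoters. In human promoters of this family, binding sites of ETS factors, YY1 and SP factors are well known.

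Promoter sequences were taken from RefSeq (GRCh38.p14), as windows of 250 bases before to 50 bases after each annotated start, and placed on GRCh37 by exact match. They matched 62 of the 77 genes, and no entry was matched for 15, among them RPL23, RPL23A, RPL30, RPL37, RPL5, RPL7, RPL8, RPS15A, RPS2 and RPS20. The following 8 promoters are shown because they lay inside the enhancers with the highest fold enrichment among the matched genes. Each runs from 80 bases before the start through the first 20 transcribed bases, and capitals mark a run of 7 or more pyrimidines over the start and the motifs searched, which are spelled out further on. Where RefSeq gave several starts, the one with the longest pyrimidine run is printed.
RPS15, chr19:1438315-1438414, plus strand: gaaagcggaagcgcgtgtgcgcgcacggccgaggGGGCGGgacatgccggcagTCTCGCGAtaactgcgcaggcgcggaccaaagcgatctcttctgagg
RPL29, chr3:52029892-52029991, minus strand: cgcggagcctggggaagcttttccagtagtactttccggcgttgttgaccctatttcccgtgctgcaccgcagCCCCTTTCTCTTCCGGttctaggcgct
RPL18, chr19:49122416-49122515, minus strand: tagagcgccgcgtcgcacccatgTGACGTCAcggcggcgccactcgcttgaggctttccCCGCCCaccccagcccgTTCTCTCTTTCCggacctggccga
RPL13A, chr19:49990785-49990884, plus strand: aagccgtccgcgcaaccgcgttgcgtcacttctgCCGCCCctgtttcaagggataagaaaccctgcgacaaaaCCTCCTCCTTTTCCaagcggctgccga
RPS24, chr10:79793541-79793640, plus strand: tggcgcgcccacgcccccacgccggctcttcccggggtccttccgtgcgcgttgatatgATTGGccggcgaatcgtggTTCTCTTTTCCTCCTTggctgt
RPS10, chr6:34393827-34393926, minus strand: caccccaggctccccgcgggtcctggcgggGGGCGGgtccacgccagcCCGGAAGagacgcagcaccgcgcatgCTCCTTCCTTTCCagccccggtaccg
RPL37A, chr2:217363487-217363586, plus strand: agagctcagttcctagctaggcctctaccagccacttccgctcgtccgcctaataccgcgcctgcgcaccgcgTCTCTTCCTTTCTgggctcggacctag
RPL34, chr4:109541652-109541751, plus strand: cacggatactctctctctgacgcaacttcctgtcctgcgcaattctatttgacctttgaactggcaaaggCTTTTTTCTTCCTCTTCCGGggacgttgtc
Of these 8, all but RPS15 begin at a C inside a pyrimidine run of 12 to 18 bases. RPS15 has a run of only 2, and carries a GGGCGG and a TCTCGCGA upstream instead. The next 4 promoters are shown because no enhancer lay within 5 kb of them.
RPLP0, chr12:120638895-120638994, minus strand: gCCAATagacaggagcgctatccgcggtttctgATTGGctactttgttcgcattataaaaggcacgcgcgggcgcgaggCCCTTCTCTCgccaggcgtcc
RPL19, chr17:37356496-37356595, plus strand: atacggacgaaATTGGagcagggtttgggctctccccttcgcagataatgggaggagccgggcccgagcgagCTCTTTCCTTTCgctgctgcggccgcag
RPL10, chrX:153626638-153626737, plus strand: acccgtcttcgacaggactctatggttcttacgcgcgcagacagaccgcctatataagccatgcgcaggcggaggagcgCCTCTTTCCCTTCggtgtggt
RPS21, chr20:60962079-60962178, plus strand: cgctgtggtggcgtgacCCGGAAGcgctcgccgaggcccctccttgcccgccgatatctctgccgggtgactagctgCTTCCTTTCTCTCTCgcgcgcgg
All 4 hold a pyrimidine run over the printed start, of 10 to 15 bases, so this feature was found in promoters with and without a called enhancer within 5 kb. The last 3 are shown for the TCTCGCGA motif, present once or more in each.
RPS19, chr19:42364245-42364344, plus strand: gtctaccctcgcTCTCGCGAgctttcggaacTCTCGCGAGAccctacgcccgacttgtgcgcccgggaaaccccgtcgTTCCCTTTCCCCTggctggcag
RPS6, chr9:19380215-19380314, minus strand: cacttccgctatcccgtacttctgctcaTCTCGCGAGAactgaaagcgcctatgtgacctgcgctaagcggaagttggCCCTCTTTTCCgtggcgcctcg
RPL26, chr17:8286492-8286591, minus strand: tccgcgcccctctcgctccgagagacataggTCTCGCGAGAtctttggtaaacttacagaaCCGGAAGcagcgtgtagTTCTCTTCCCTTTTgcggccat

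A run of 7 or more pyrimidines over an annotated start was found in 47 of the 62 matched genes (75.8%), against 996 of 13452 other genes (7.40%). In RPS7 the run lay mostly upstream of the start, from 8 bases before it, and in RPL7A it reached 25 bases. The start base itself was C in 49 of 62 genes (79.0%) and in 14.9% of the others. Genes without such a run included RPS15, RPL17, RPL27, RPL32, RPL4, RPL9, RPS26, RPS28, RPS29 and RPS4X. At several of these, among them RPL4, RPL17, RPL9 and RPL27, a pyrimidine run stands close to the annotated start without covering it. Such runs were not counted. For RPS29 the only matched start was at chr14:50065428, whereas its open enhancer lay from 50052646 to 50053317. The start inside that enhancer was therefore not searched for a run. Base composition was similar, with a median GC content of 59.3% in the ribosomal protein gene promoters and 62.7% in the others.

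Motifs were counted on both strands of the same windows of 300 bases, and a match is a description of the letters and not a binding site. CCGGAAG, the core of many ETS sites, occurred in 22 of 62 genes (35.5%) and in 16.2% of the other genes. TCTCGCGA, part of a longer palindrome common in housekeeping promoters, occurred in 12 of 62 genes (19.4%) and in 2.01% of the others, which was the widest relative gap among the 7 motifs. It was found in promoters of both subunits, among them RPS19, RPS6, RPS15, RPS28, RPL7A, RPL10A, RPL12, RPL17, RPL26 and RPL27A. AAGATGG (YY1) was present in 8 genes (12.9%, others 8.13%), CACGTG (E-box) in 4 (6.45%, others 11.1%) and TGACGTCA (CRE) in 3 (4.84%, others 3.05%). GGGCGG (SP family) and CCAAT (NF-Y) were no more frequent in these promoters, at 58.1% and 35.5%, than in the others, at 65.2% and 42.5%. A YY1 or E-box count of this size rests on a handful of genes.

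**Figure D1:**
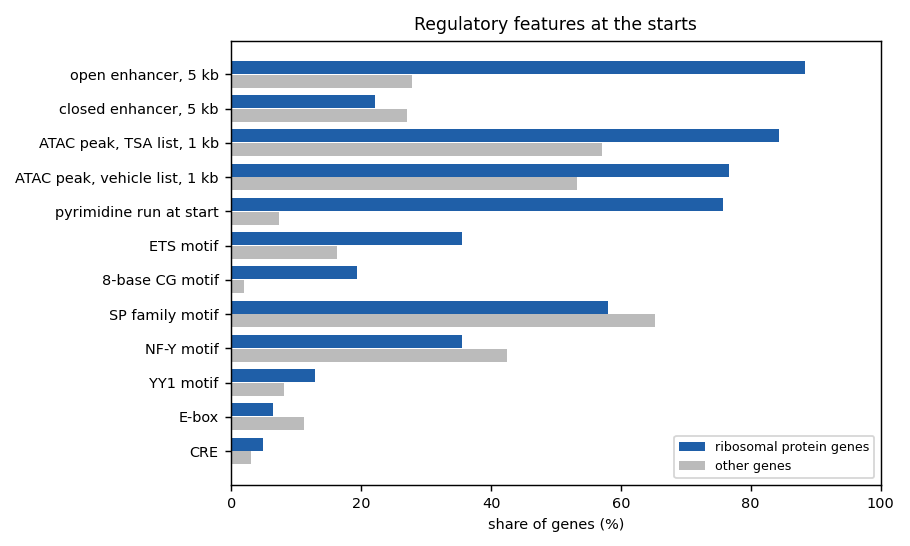
Share of genes in percent (horizontal axis) with each feature, for the ribosomal protein genes (upper bar, blue) and other genes (lower bar, grey). The enhancer and ATAC-seq shares are over 77 genes, the sequence shares over 62, and the 8-base CG motif is TCTCGCGA. Open enhancers and the pyrimidine run show the widest gaps, at 88.3% and 75.8%, and the bar for closed enhancers is the shorter of its pair.

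A STARR-seq enhancer lay within 5 kb of a start of 70 of the 77 genes (90.9%), against 48.1% of all 21537 genes with an annotated start. This came almost entirely from open enhancers, those that overlap a DNase I site of LNCaP cells. An open enhancer was present at 68 genes (88.3%, background 28.0%), and for all 68 it was centred within 1 kb of a start, where the background was 20.7%. Closed enhancers, which overlap no such site, were found within 5 kb of 17 genes (22.1%), close to the background of 27.0%. The 565 other genes with a start and at least 8 log2 CPM were not matched to the family in level. Their median was 7.33 log2 CPM per kb of transcript, against 9.18 for the ribosomal protein genes. An open enhancer within 1 kb was found at 32.2% of them, and the part of level in this gap was not tested. The other parts of the translation apparatus lay between, at 51 of 76 mitochondrial ribosomal protein genes (67.1%) and 5 of 7 genes with an elongation factor (EEF) symbol. The counts were 15 of 25 for ribosome biogenesis genes and 8 of 10 for other genes with TOP mRNAs. The large and small subunits were alike, with 41 of 46 and 27 of 31 genes. Of the genes mutated in Diamond-Blackfan anaemia, an inherited failure of red cell production, 18 of 19 had an open enhancer at the start.

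The enhancers sat on the start sites. Of 75 open enhancers within 5 kb, 68 had their centre within 350 bases of a start, with a median distance of 63.5 bases over all 75, and an enhancer covered a start of 68 genes (88.3%, background 18.6%). For the strongest enhancer of each gene the summit was a median of 48.5 bases from the start, downstream in 34 genes, upstream in 33 and on the start base itself in 3. At RPS3A, RPL37 and RPL27 the summit and an annotated start were the same base. The median length of these open enhancers was 746 bases, so most reach on both sides of the start. The reporter plasmid carries its own minimal promoter, and whether the fragments also start transcription themselves was not tested. Among the 75, the start nearest to the centre was that of a ribosomal protein gene for 69. At RPL18, RPL35A and RPS27A the nearest start belonged to the neighbouring genes SPHK2, IQCG and C2orf63, so these enhancers lie at a region shared by neighbouring starts.

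**Figure D2:**
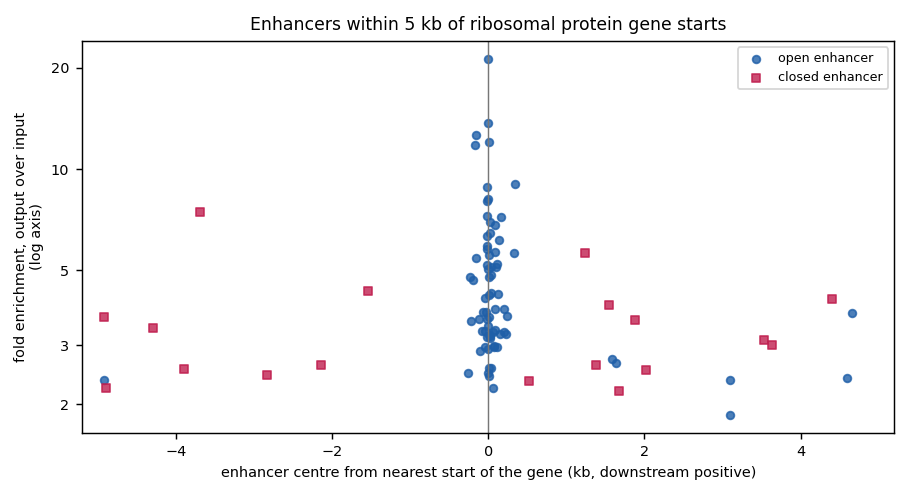
Fold enrichment of output over input (vertical axis, log scale) against the distance in kb of the enhancer centre from the nearest start of the ribosomal protein gene (horizontal axis, downstream positive), with 75 open enhancers as blue circles and 18 closed enhancers as red squares. The open enhancers form a narrow column at the start, with 68 of 75 within 350 bases, and 17 of the 18 closed enhancers lie more than 1 kb away.

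The fold enrichment of the strongest enhancer within 5 kb had a median of 4.18 over the 70 genes, with quartiles of 3.25 and 5.88 and a range from 2.24 to 21.3. Over all 10365 genes with an enhancer in that window the median was 3.18. A strongest fold above 5 within 1 kb was reached by 27 of 68 ribosomal protein genes (39.7%) and by 792 of 5550 other genes with an enhancer there (14.3%), and a fold above 10 by 5 (7.35%) and by 113 (2.04%). The medians of the large and small subunit genes were 4.07 and 4.18. The fold is the authors' ratio for the pooled replicates. The output fragments recovered at the summits of the open enhancers numbered from 47 to 660, with a median of 96. The intervals below (95%, exact Poisson on the output fragments) cover counting error only, with each fragment taken as independent. The authors removed duplicates within each indexed PCR library and then pooled these libraries, so a fragment may be counted more than once. The intervals may therefore be too narrow.

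The highest value belonged to RPS15, a protein of the small subunit head whose tail reaches the decoding site. Its enhancer on chromosome 19 from 1437985 to 1438849 had 660 output fragments at the summit against 30.1 scaled input fragments, a fold of 21.3 (19.7 to 23.0), with the summit 2 bases downstream of the start. This interval did not overlap that of any other ribosomal protein gene. RPS15 also had weaker open enhancers 1.63 kb downstream (2.65-fold) and 4.92 kb upstream (2.37-fold). The next was RPL29, a large subunit protein, with 267 output against 18.6 scaled input fragments and a fold of 13.7 (12.1 to 15.4) on chromosome 3 from 52029507 to 52030237. RPL5, which carries the 5S rRNA into the large subunit, followed at 12.7 (11.5 to 13.9) on chromosome 1 from 93296813 to 93298080, with 439 output fragments. RPL18 was at 11.8 (10.5 to 13.1) with 322 output fragments, on chromosome 19 from 49122021 to 49123204. The intervals of RPL29, RPL5 and RPL18 overlapped each other, so counting error alone leaves their order unresolved.

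The next tier followed closely. RPL13A, which also takes part in a translational silencing complex, was at 9.05 (7.94 to 10.3), and RPS24, a Diamond-Blackfan anaemia gene, at 8.86 (7.35 to 10.6). RPS10, at the entry of the mRNA channel, was at 8.13 (7.02 to 9.37) and RPL37A at 8.03 (7.10 to 9.06). RPS9 reached 7.47 (6.03 to 9.14) through a closed enhancer 3.69 kb upstream, on chromosome 19 from 54700683 to 54701390, while the open enhancer at its start was at 3.28 (2.54 to 4.16). The intervals of the upstream and the start enhancer did not overlap. Beyond these, RPL34 (7.27) and RPL4 (7.22) came next, with intervals that overlap those of this whole tier.

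**Figure D3:**
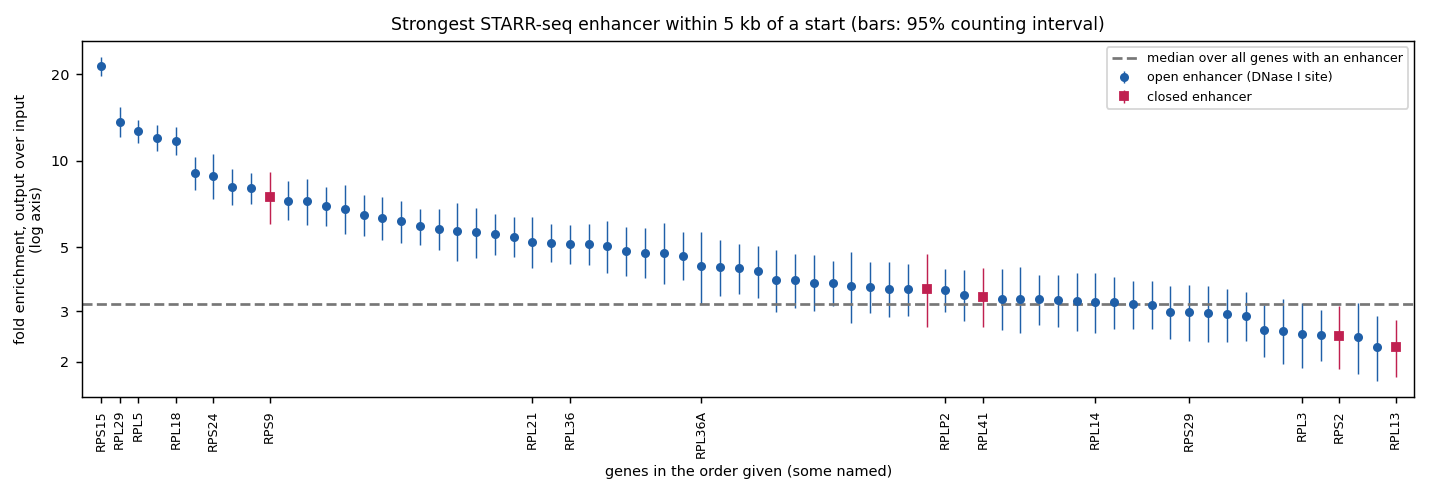
Fold enrichment of the strongest enhancer within 5 kb of each of 70 genes (vertical axis, log scale; a few genes are named on the horizontal axis), ordered from RPS15 at 21.3 to RPL13 at 2.24, with bars for the 95% counting interval, blue circles for open and red squares for closed enhancers. The dashed line is the median over all genes with an enhancer, 3.18. A group of 5 genes stands above 10, and the remaining 65 fall off gradually with overlapping intervals.

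The closed enhancers near ribosomal protein genes numbered 18, at 17 genes, with a median fold of 3.05 and 36 to 98 output fragments. Only RPL7A, where it lay 523 bases from the start, had one within 1 kb (background 6.08%). After RPS9 the strongest was at RPL39, a tunnel protein (5.64, at 1.24 kb downstream). RPS12 (4.35, 1.54 kb upstream, nearest to C6orf192), RPL4 (4.12), RPL35A (3.96, 1.55 kb downstream) and RPL5 (3.63, 4.92 kb upstream) followed. The closed enhancer of RPL4 lay 4.40 kb downstream of a different annotated start than the one inside its open enhancer. RPL23 had a pair, at 3.57 and 2.55, on either side of the start, and RPL41 one at 3.37. The other closed enhancers were at RPL35 (3.10), RPSA (3.00), RPL10A (2.63), RPS16 (2.62), RPS15A (2.53), RPS2 (2.45), RPL7A (2.35), RPL13 (2.24) and RPL38 (2.19). RPS2 and RPL13 had no open enhancer within 5 kb, so their only enhancers lay 2.83 and 4.89 kb upstream of the start, outside DNase I sites.

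No enhancer lay within 5 kb of 7 genes. In order of level these included RPLP0, RPS20, RPL19, RPS21, RPL23A and RPL10, and the first 4 of those named were at 10.31, 9.80, 9.59 and 9.34 log2 CPM per kb of transcript. The median over all 77 was 9.18, so these 4 were not low-level genes. The authors kept reads with a single position in the genome. Words of 31 bases were therefore counted within 300 bases of the most unique start of each gene. The share that occurs more than once in GRCh37 was under 10% in 73 of the 77 genes and over 50% in 1. Among the genes named above it was highest at RPS20 (2.80%), which does not cover the gene left unnamed. RPLP0, RPS20, RPS21, RPL23A and RPL10 had an ATAC-seq peak within 1 kb in each list, with TSA and vehicle scores of 0.0931 and 0.0732 at RPLP0 and of 0.146 and 0.160 at RPS20. RPL19 had none within 1 kb in either list, and the nearest peak, 3.21 kb away under TSA and 3.74 kb away under vehicle, was closer to CACNB1.

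Of the stalk proteins, which recruit elongation factors, RPLP0 had no enhancer, and RPLP2, RPL12 and RPLP1 had modest ones at 3.55, 2.92 and 2.48. Both 5S partners had strong ones, RPL5 at 12.7 and RPL11 at 6.33 (5.31 to 7.50). These proteins are also known for binding MDM2 when ribosome assembly is disturbed. Around the exit tunnel, RPL4 was at 7.22, RPL39 at 5.68, RPL17 at 4.78, RPL26 at 3.77, RPL31 at 3.75 and RPL35 at 3.22, while RPL19 and RPL23A had none. Among proteins of the mRNA path and the head of the small subunit, RPS15 was at 21.3, RPS10 at 8.13 and RPS29 at 2.97, and the values of others were RPS14 (5.55), RPS3 (5.12), RPS23 (3.84), RPS19 (3.31) and RPS2 (2.45).

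Neither level nor accessibility ordered the genes as the enhancer fold did. Across the 70 genes with an enhancer, Spearman's rho between level per kb and strongest fold was -0.18, and between the DNase I score of the strongest open enhancer and its fold it was 0.07 (65 genes). With the ATAC-seq score it was 0.12 for the TSA list (60 genes) and 0.05 for the vehicle list (54 genes). These are descriptions across genes of 1 cell line, which share their libraries and are not replicates. By sequence, the median fold was 4.68 in 19 genes with an enhancer and the ETS motif and 4.13 in 39 without it. It was 3.31 in 11 genes with TCTCGCGA and 4.68 in 47 without it, a group that does not include all the strongest, as RPS15 carries the motif. With and without the pyrimidine run it was 4.26 (43 genes) and 3.41 (15 genes). None of these differences was tested.

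The mRNA levels were compared per kb of transcript, as the authors' average log2 CPM less the log2 of the median length in kb of the annotated transcripts. The ribosomal protein genes had a median of 9.18 (quartiles 8.53 and 9.61), against 1.87 for all 21537 genes with a length and 7.33 for the other genes at 8 or more log2 CPM. All but 1 of the 77 were above the 90th percentile of all genes, and 30 were among the 100 highest. Mitochondrial ribosomal protein genes were at a median of 5.30, ribosome biogenesis genes at 5.51 and the genes with an EEF symbol at 9.21, the lowest of them EEF1E1 at 4.95. Among the 5 highest were RPL41, which encodes a very short peptide (10.70), RPL3, a protein near the peptidyl transferase centre (10.57), RPS24 (10.54) and RPS2, at the mRNA entry (10.38). The 5 lowest were RPL21 (4.91), RPL14 (5.76), RPS28 (6.56), RPS26 (6.72) and RPL22 (7.04). They spanned a wide range below the rest, which lay between 7.81 and 10.70.

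The low end rests partly on annotation. RPL14 was at 8.58 log2 CPM before division by a median transcript of 7072 bases, the longest of the family, whose median was 748 bases. RPL21 was low before division too, at 4.24 log2 CPM, and has 133 annotated processed pseudogenes, the most of any of these genes. All 77 genes have at least 1 such copy, with a median of 14. RPL23A has 87 and was at 9.21, RPL7A has 80 and was at 10.02, and how reads shared with such copies were counted is not stated. The levels of single genes in this family are therefore uncertain, and the part of the copies in the value for RPL21 was not tested.

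**Figure D4:**
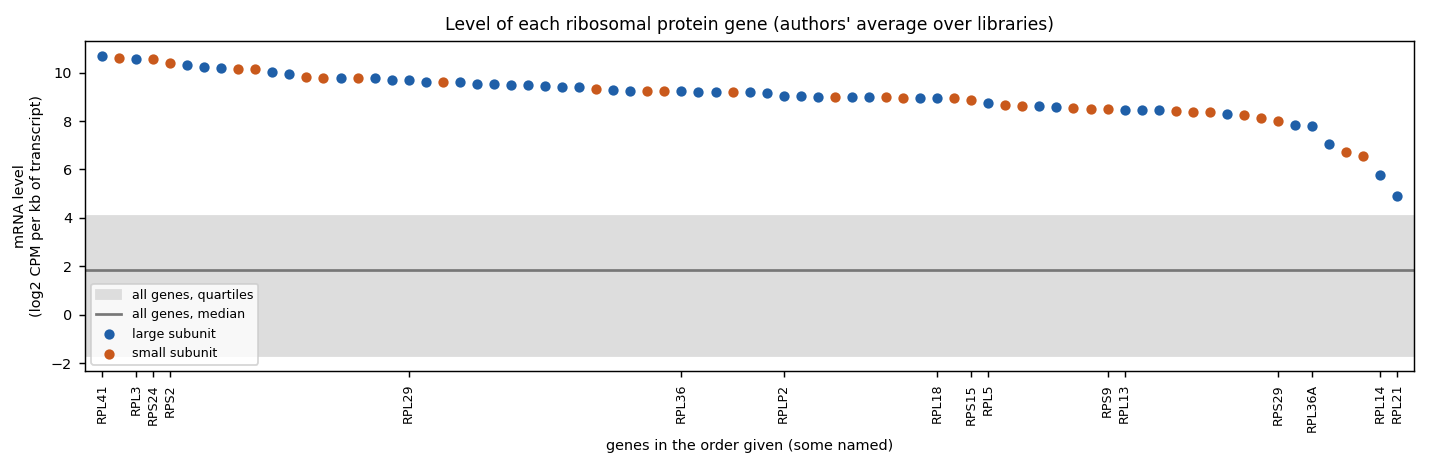
Average mRNA level in log2 CPM per kb of transcript (vertical axis) of each of the 77 genes (a few are named on the horizontal axis), ordered from RPL41 at 10.70 to RPL21 at 4.91, with large subunit genes in blue and small subunit genes in orange. The grey band and line are the quartiles and the median (1.87) of all genes. Both subunits are spread over the whole order, and a tail of 5 genes falls below 7.81.

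ATAC-seq peaks were called by the authors on the pooled libraries of each condition. A peak centred within 1 kb of a start was listed for 65 of 77 genes under TSA (84.4%, background 57.2%) and for 59 under vehicle (76.6%, background 53.3%). Within 5 kb the numbers were 67 (background 64.4%) and 64 (background 60.3%). The strongest peak within 1 kb was nearest to another gene's start for 12 of the 65 under TSA and 9 of the 59 under vehicle. Genes outside the family at 8 or more log2 CPM had shares of 77.0% and 71.0% within 1 kb, so these shares were closer to those of other strongly expressed genes than the shares of open enhancers were. The median peak was lower than that over all genes. The median score of the strongest peak was 0.0760 under TSA and 0.0650 under vehicle for the ribosomal protein genes, and 0.0943 and 0.0832 for all genes with a peak. Over the whole lists, which also hold peaks away from starts, the medians were lower, at 0.0588 under TSA and 0.0591 under vehicle. The reads per merged site at starts were also lower, with a median of 4.67 log2 CPM at 68 ribosomal protein genes and 5.14 at 12501 genes in all. These values are not corrected for the width of a site. The scores reached 0.270 under TSA and 0.295 under vehicle at RPS29, a zinc-binding protein of the small subunit head, well above all other ribosomal protein genes in both lists.

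Between the conditions, the ratio of the 2 pooled scores could be taken for the 54 genes with a peak in each list. Its median was 0.16 on the log2 scale, and the score was higher under TSA at 38 genes (70.4%) and lower at 16. Over all 11049 genes with a peak in each list the median was 0.20 and 75.8% were higher under TSA, so the family lay near the background. The scaling between the lists is not stated. With scores divided by the sum of each list the medians became 0.02 for these genes and 0.06 for all, with 29 genes (53.7%) higher under TSA and 25 lower, so no direction is read from this ratio. The middle of the distribution was narrow, with quartiles of -0.06 and 0.31.

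The 5 genes with the highest ratio were RPLP2 (0.120 under TSA and 0.0745 under vehicle, 0.69 on the log2 scale), RPS3A (0.0880 and 0.0553, 0.67), RPL35A (0.0655 and 0.0428, 0.62), RPS24 (0.0807 and 0.0538, 0.59) and RPL13A (0.0847 and 0.0584, 0.54). These are moderate scores, and RPL35A under vehicle was close to the lowest score of its list, 0.0390. The 5 lowest were RPL36A (0.108 under TSA and 0.191 under vehicle, -0.82), RPSA (0.0662 and 0.0835, -0.34), RPS28 (0.0537 and 0.0650, -0.28), RPS4X (0.105 and 0.124, -0.24) and RPL37 (0.121 and 0.139, -0.20). RPL36A stood apart from the others. Its peaks in both lists were nearest to a start of RPL36A-HNRNPH2. The TSA peaks of RPL35A and RPS28 were nearest to IQCG and NDUFA7, and their vehicle peaks to their own starts. With 1 pooled value per condition, none of these differences can be set against the spread between cultures. Of the other stalk genes, RPL12 was at 0.51, RPLP0 at 0.35 and RPLP1 at 0.06 on the same unscaled scores.

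**Figure D5:**
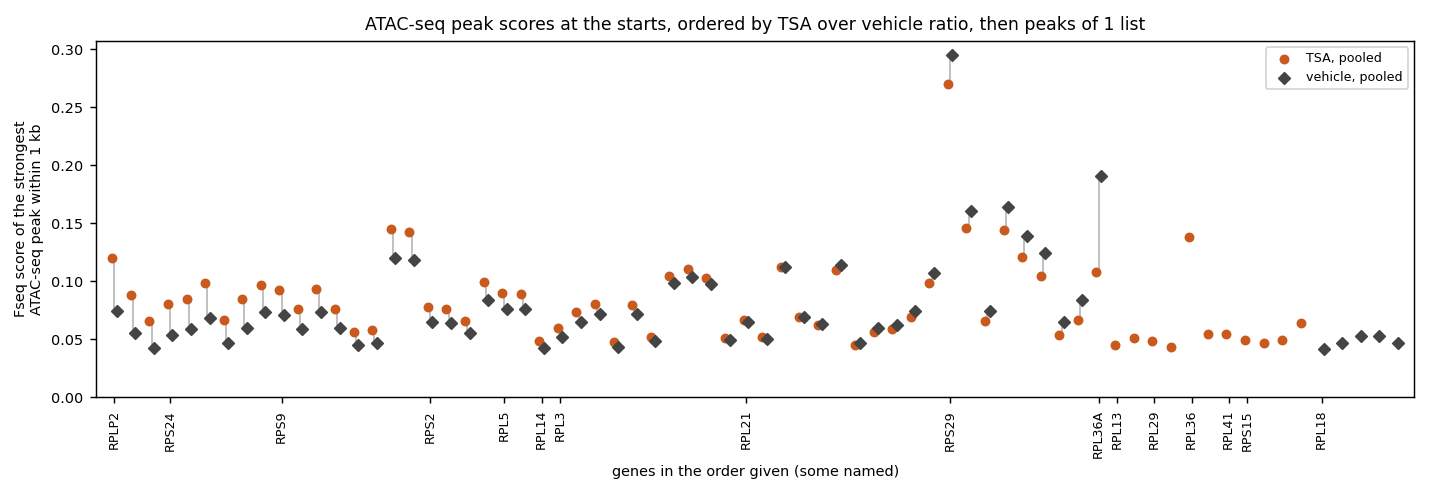
Fseq score of the strongest ATAC-seq peak within 1 kb of a start (vertical axis) for 70 genes (a few are named on the horizontal axis), in the pooled TSA list (orange circles) and the pooled vehicle list (dark diamonds), ordered by the ratio of TSA over vehicle and then by the genes with a peak in the TSA list or the vehicle list alone. The pairs are close over most of the plot, from RPLP2 at 0.69 to RPL36A at -0.82 on the log2 scale, and RPS29 has the highest scores.

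A peak was listed under TSA alone at 11 genes (14.3%, background 5.94%) and under vehicle alone at 5 (6.49%, background 1.95%). The 11 under TSA included RPL13, RPL17, RPL29, RPL32, RPL36, RPL37A, RPL41, RPS15, RPS18 and RPS27A, and the 5 under vehicle were RPL18, RPL31, RPL7A, RPS19 and RPS3. At RPL36 and RPL7A a wide peak in the other list also covered a start, with its centre beyond 1 kb. Counted by whether a peak covers a start instead, 10 genes had a TSA peak alone (background 5.69%), 4 a vehicle peak alone (background 1.34%) and 7 neither (background 39.9%). Without RPL36 and RPL7A, the TSA scores of the other genes named ran from 0.0431 at RPL32 to 0.0547 at RPL41 and the vehicle scores of the remaining 4 from 0.0415 at RPL18 to 0.0530 at RPS19. The lowest scores of the whole lists were 0.0377 and 0.0390, so most of these peaks were near the limit of being listed at all.

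At 7 genes no peak of either list lay within 1 kb (9.09%, background 40.8%), among them RPL10A, RPL11, RPL19, RPL23, RPL4 and RPS10. In 5 of these, RPL10A, RPL11, RPL23, RPL4 and RPS10, an open enhancer sat at the start, with folds of 2.89, 6.33, 3.20, 7.22 and 8.13 (6.49% of the family, background 2.60%). By definition these overlap a DNase I site of LNCaP cells, with DNase I scores of 0.19, 0.12, 0.21, 0.16 and 0.34. Of the 68 family genes with an open enhancer within 1 kb, these 5 had no ATAC-seq peak there. Over all genes this held for 560 of 4453, so among genes with such an enhancer the share was lower in the family. Among the strongest enhancers the ATAC-seq scores varied. RPL5 had 0.0902 under TSA and 0.0765 under vehicle, above the medians of the family. RPS15 and RPL29 had scores of 0.0495 and 0.0481 under TSA and no vehicle peak within 1 kb, and RPL18 had 0.0415 under vehicle and no TSA peak there.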

How the data were processed

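The family follows the symbol rule given at the start. The rules for naming its members and the gene lists set beside it were chosen with earlier results of these data known. For STARR-seq, the authors aligned paired reads to hg19 with Bowtie and removed reads with more than 1 position. They collapsed duplicate fragments with Picard within each indexed PCR library of the output and pooled these libraries, keeping duplicates between them. MACS2 was run on both replicates pooled, with the plasmid library as background. Per enhancer, the deposited lists hold a peak score, the fold at the summit (output against input), and p-values and q-values as −log10. Open enhancers also have a DNase I score. For ATAC-seq, the authors called Fseq peaks on pooled libraries, and the deposited score per peak has no stated scaling between conditions. The averages per gene and per merged ATAC-seq site are deposited in log2 CPM, and the authors obtained them with edgeR. The untreated mRNA-seq libraries have no column of their own, and whether they entered the average per gene is not stated. The columns of the authors' own TSA against vehicle comparisons (fold change, likelihood ratio, p-value, q-value) were not used. No version of these tools is given in the sources used here. All 6 files were used, and 0 columns of samples outside the series were found.

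The calculations ran under Python 3.11.15 (pandas 2.3.3, scipy 1.17.1, numpy 2.4.6). Distance is from the centre of a region to any of 60180 start sites of 21537 genes in the basic set of GENCODE 44 on GRCh37, within 5000 bases for counts and 1000 bases for scores at the start. The fragments at a summit, n of the output and those of the scaled input, were solved from the deposited fold, taken as n + 1 over input + 1, and the p-value. Every n near these genes came within 0.000504 of a whole number. Levels were divided by the median transcript length, with no pseudocount. Recovery of fragments and the distance search were tested on simulated data. Named genes are the 5 highest and 5 lowest levels and ATAC-seq ratios, the 10 highest folds, genes with a closed enhancer, with none or with a peak in 1 list alone, and the small functional lists. The rule capped the genes with a peak in 1 list at 10, but all are named. RPL34, RPS29 and a few other members named outside this rule were chosen after their values were seen. Results of a few genes are not reported here. Alternatives changed the distance, its reference point, the q-value, the start sites, the list lengths, the scaling of scores, the transcript length, a filter at 1 CPM, a pseudocount of 1 CPM, the strand and the length of the pyrimidine run. Depth per library is unknown, and the intervals leave out the error of the input and between replicates. They also leave out repeated counting of a fragment between indexed libraries.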

Additional observations from a re-analysis of the deposited data

How the results depend on the processing

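Of 59 alternatives, 43 kept the value, with counts allowed to move by up to 1.5 times and other values held to 2 decimals. The number of genes with an enhancer stayed between 64 and 74 and that with an open enhancer between 64 and 72 of 77 under every setting tried, while the share over all genes ran from 26.1% at 1 kb to 65.1% at 10 kb. The number with a closed enhancer was 17, and became 1 at 1 kb, 31 at 10 kb and 9 at a q-value under 1e-10. The median strongest fold of 4.18 became 4.31 at 10 kb, 4.13 from the nearest edge, 4.49 at a q-value under 1e-10, 4.12 with the outermost start alone and 3.96 with only enhancers nearest to the gene's own start. The median log2 ratio of ATAC-seq scores, 0.16, became 0.11 within 5 kb, 0.17 after division by the median of each list and 0.017 after division by its sum. The median level of 9.18 log2 CPM per kb became 8.33 with the longest transcript and 8.07 with the union of exons, and RPS29 and RPL37 then joined the 5 lowest. On the gene strand alone the YY1 motif was found in 4 genes, the SP family motif in 20 and the NF-Y motif in 9. The causes of these shifts were not tested. No paired analysis was possible because the columns carry no values per replicate, and for the same reason no replicate could be left out. At the shallowest open enhancer the counting interval rests on 47 output fragments.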

Other observations

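Enhancers also lay near genes close to the family but outside the rule. RPS27L, a paralog of RPS27 known as a p53 target, had a strongest enhancer within 5 kb of 21.8-fold, about the value of RPS15, while RPS27 itself was at 4.26. RPL39L, the paralog of RPL39, was at 14.01-fold, with no ATAC-seq peak within 1 kb in either list and a level of 4.93 log2 CPM per kb, against 9.61 for RPL39. FAU, which encodes a ribosomal protein fused to a ubiquitin-like protein, was at 8.47-fold, through an enhancer it shares with the mitochondrial ribosomal protein gene MRPL49. Of the 12 paralogs and fusion genes, 11 had an enhancer within 5 kb and 8 an open one within 1 kb. Among the elongation factors, EEF2 was at 11.4-fold, EEF1G at 7.18 and EEF1B2 at 5.03, while EEF1A1, at 11.54 log2 CPM per kb, was at 3.38. Among other genes with TOP mRNAs, TPT1 reached 6.92-fold. None of these values has an error between replicates.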
